A study of Mus musculus with 12 samples.

Results

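The question here was whether in vivo selection changed the transcriptome of ErbB2-driven mammary tumours differently when the adaptor p66ShcA was present. NIC cells are mouse breast cancer cells that carry ErbB2 and have no p66ShcA of their own. The p66High cells were engineered to overexpress it at all times, and the p66Low cells are the matching line without that expression. Each line was grown in mammary fat pads through 2 rounds of selection and explanted again, which gave an aggressive population beside its parental one. All 12 tumours of the series were used, 3 in each of 4 groups: p66Low parental, p66Low aggressive, p66High parental and p66High aggressive. Tumours grew from 250000 cells placed with matrigel in the fourth fat pad of FVB/N females aged 8 to 12 weeks. For each of the 19370 genes tested, the interaction is the change of aggressive against parental tumours in p66High less the same change in p66Low, on the log2 scale. A higher interaction thus means that selection raised the gene more, or lowered it less, in p66High than in p66Low.

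The Shc1 gene encodes several adaptor proteins that bind phosphorylated receptors such as ErbB2 and couple them to RAS and ERK signalling through Grb2. p66ShcA is the longest of them and is best known for its part in the oxidative stress response. Interferons act through transcription factors such as the IRFs to raise genes of antiviral defence and antigen presentation, and p53 raises genes that halt the cell cycle or promote cell death. In bulk tumour RNA these programmes can come from cancer cells or from host cells, and fewer cells of a type cannot be told apart from less RNA per cell.

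The level of the Shc1 gene was measured first. Shc1 stood at 65.0, 59.0 and 69.4 CPM (read counts scaled to a common library size) in p66Low parental tumours and at 61.0, 65.3 and 69.9 CPM in p66Low aggressive ones. It stood at 271, 234 and 223 CPM in p66High parental and at 237, 246 and 774 CPM in p66High aggressive tumours, so every p66High tumour lay above every p66Low tumour and p66High aggressive replicate 3 was highest. Counts per gene do not separate p66ShcA from the other Shc1 products, nor an introduced copy from the cells' own gene. The interaction was not called for Shc1 (0.77 ± 0.51, SE; adjusted p = 0.349) or for Erbb2 (0.21 ± 0.26; adjusted p = 0.625), whose levels lay between 50.6 and 89.6 CPM in all 12 tumours. Total counts ran from 17.4 to 76.1 M per tumour. In 3 libraries, p66Low aggressive replicates 1 and 2 and p66High parental replicate 3, the 9 markers on the lymph node stroma list summed to 231, 339 and 80.5 CPM, against 1.77 to 9.79 CPM in the other 9. All 3 sit in groups that pull the interaction down, so results are given with and without them; without them p66Low aggressive holds 1 tumour, whose spread is taken to be that of the other groups. Whether the tumours of a group grew in different mice is not stated in the labels, and p-values describe only how much these samples vary. Throughout, levels are mean ± SD over 3 tumours in CPM, errors of log2 differences are standard errors (SE), and a gene is called at an adjusted p under 0.05 over all genes tested.

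With all 12 tumours, the interaction calls came mainly from genes that changed in p66Low and did not pass the test in p66High. A call means that the 2 changes differed, not that the lines ended further apart. The interaction was called for 2395 genes, 12.4% of those tested: 847 were higher (4.37%) and 1548 were lower (7.99%). Of the 1548 lower genes, 1069 (69.1%) rose with selection in p66Low and were not called in p66High, 214 fell in p66High alone by the same rule, and 47 rose in p66Low and fell in p66High. Of the 847 higher genes, 404 (47.7%) fell in p66Low and were not called in p66High, 210 rose in p66High and were not called in p66Low, and 41 fell in p66Low and rose in p66High. Neither selection alone passed for 180 of the higher and 204 of the lower genes. The selections themselves called 3221 genes in p66Low (16.6%) and 1150 in p66High (5.94%). The 2 estimates had opposite signs for 2070 of the 2395 genes (86.4%), and the absolute change was larger in p66Low for 1639 (68.4%). A call requires that the 2 changes differ, which favours opposite signs, so the 86.4% is not read as a result. Among the called genes, both selections passed with opposite signs only for the 41 and 47 genes above. With the log2 summed level of the lymph node stroma list as a covariate, selection called 697 genes in p66Low and 737 in p66High. The larger count in p66Low was not seen under that covariate. It was seen in every fit that left out a single tumour, for example 1545 against 1002 without p66Low parental replicate 3. It was also seen with p66High tumours whose titles share a number summed (3044 against 305). That summed list level was 231, 339 and 9.79 CPM in p66Low aggressive tumours and 3.78, 2.52 and 2.5 CPM in p66Low parental ones. The covariate thus moved with selection in p66Low, and its fit cannot separate them.

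**Figure D1:**
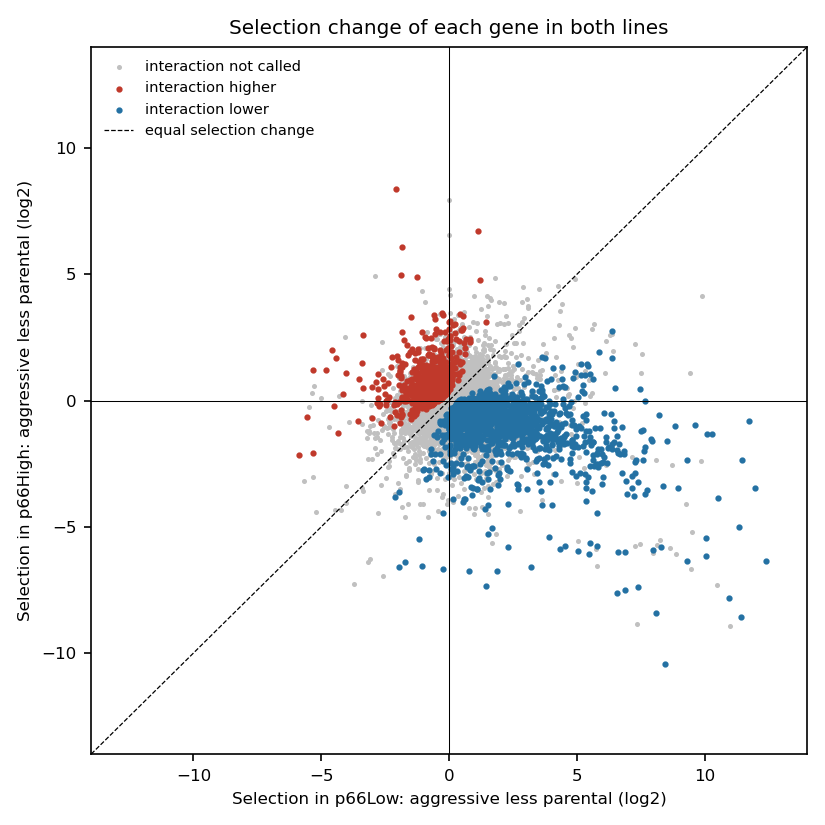
Each point is 1 of the 19370 genes, with the log2 change of aggressive against parental tumours in p66Low on the horizontal axis and in p66High on the vertical axis; red and blue mark the 847 and 1548 genes whose interaction was called higher and lower, grey the rest, and the dashed line equal change. Blue points spread far to the right at vertical values near or below 0, which is the 1069-gene pattern of a rise in p66Low only.

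The count of calls leaned on the 3 libraries rich in lymph node genes. Without them 335 genes were called, 101 higher and 234 lower, and 319 of the 335 were among the 2395 (95.2% of the 335, 13.3% of the 2395). Of the 2354 called genes that could be tested without them, 2349 kept their direction. With the log2 summed level of the lymph node stroma list as a covariate, 153 were called, 148 of them shared. Scaled by library size alone, 545 genes were higher and 1790 lower, so that 23.3% of the calls were higher against 35.4% with the scaling used here, and the median over all genes shifted by -0.11. Leaving out single tumours gave 1179 calls without p66Low parental replicate 3, 1182 without p66Low aggressive replicate 2 and 1442 without p66High parental replicate 3. In both p66High groups a number in the title is the same for replicates 1 and 2, followed by L in replicate 1 and R in replicate 2. The meaning of number and letter is not given, and the main fit treats these as separate tumours. With each such pair summed into 1 sample, the interaction was called for 1179 genes. Selection in p66High was then called for 305 genes, against 1150.

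The gene with the smallest p was Adamts1, a secreted protease that cleaves matrix proteoglycans. Adamts1 (ENSMUSG00000022893 on chromosome 16, 85793827 to 85803113, mm10) measured 40.5, 35.1 and 39.5 CPM before selection in p66Low and 193, 181 and 204 CPM after it. In p66High it went the other way, from 137, 141 and 109.7 CPM in parental to 62.9, 51.7 and 58.2 CPM in aggressive tumours. Parental and aggressive tumours did not overlap in either line, and the 4 groups did not overlap at all. The log2 interaction was -3.49 ± 0.16 (adjusted p = 2.42e-06), from a rise of 2.33 in p66Low and a selection change of -1.17 in p66High. It was -3.67 without the 3 libraries (adjusted p = 0.000124). Adamts1 lies in a distal stretch of chromosome 16 whose genes were jointly low in p66High aggressive tumours, described at the end, and the part of that stretch in its fall was not tested.

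Other genes crossed over between the lines in the same way. Reep1, which shapes the endoplasmic reticulum, went from 0.756, 2.80 and 2.05 to 14.1, 14.8 and 17.0 CPM in p66Low and from 4.85, 4.996 and 5.85 to 0.406, 0.471 and 0.518 CPM in p66High. Parental and aggressive tumours were apart in both lines, with a log2 interaction of -6.55 ± 0.53 (adjusted p = 0.000317). Sftpd, surfactant protein D, a secreted lectin of innate defence, went from 0.296 to 3.77 CPM in p66Low and from 3.78 to 0.216 CPM in p66High as group means (interaction -7.80 ± 0.69). Slc35d3, a nucleotide sugar transporter-like protein, rose from 1.74 ± 0.415 to 23.5 ± 7.31 CPM in p66Low and fell from 1.91 ± 0.0607 to 0.509 ± 0.124 CPM in p66High (interaction -5.67 ± 0.41). Cldn4, a tight junction claudin, rose in p66Low (log2 2.15) and fell in p66High (log2 -1.06). These 4 genes were called in each of the 12 fits that left out 1 tumour and without the 3 libraries.

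Other genes fell with selection in p66Low and rose in p66High. Rspo3, a secreted amplifier of Wnt signalling, was at 7.10, 4.14 and 13.4 CPM in the p66Low parental group and at 2.97, 2.35 and 1.74 CPM in its aggressive counterpart. In p66High its levels were 1.44, 1.23 and 1.75 CPM before and 10.6, 8.80 and 10.2 CPM after selection. The levels of p66Low parental and p66High aggressive tumours thus overlapped, as did those of the other pair of groups in part, and the interaction was 4.55 ± 0.52 (adjusted p = 0.00147). Pkp1, a desmosomal plakophilin, fell from 71.5 ± 5.59 to 10.4 ± 3.15 CPM in p66Low and rose from 15.6 ± 5.51 to 32.4 ± 1.23 CPM in p66High (interaction 3.84 ± 0.36). Dpysl5, a regulator of axon growth (5.97), Asic1, an acid-sensing ion channel (3.83), and St8sia6, a sialyltransferase (3.96), followed the same course and were called without the 3 libraries. Col10a1, a short-chain collagen best known from growth plate cartilage, fell with selection in p66Low from 17.9, 22.4 and 12.9 to 1.25, 1.01 and 1.07 CPM. The p66High parental group gave 4.51, 5.17 and 4.74 CPM and the aggressive group 6.67, 7.74 and 16.1 CPM, which did not overlap but did not pass the test (adjusted p = 0.0628). Its interaction was 5.10 ± 0.46 (adjusted p = 0.000464). Gabrr1, a GABA receptor subunit, had levels of 2.40, 0.731 and 1.74 CPM in parental p66Low tumours and of 0.104, 0 and 0.114 CPM after selection and stood at 2.51 CPM on average in p66High aggressive ones without passing the test in that line (interaction 6.59 ± 0.94).

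In several of the most significant genes 1 group stood apart from the other 3. Psrc1, a spindle microtubule protein, stood at 21.8, 17.6 and 12.9 CPM in p66Low aggressive tumours and between 85.0 and 133 CPM in the other 9 (interaction 2.89 ± 0.24; adjusted p = 0.000317). Rbp7, a retinol-binding protein, stood at 147, 69.9 and 177 CPM in p66Low parental tumours and between 4.10 and 13.4 CPM in the other 9 (interaction 4.29 ± 0.50). Hoxa10, a posterior homeobox factor, stood at 30.5, 29.3 and 29.9 CPM in p66High aggressive tumours and between 0.648 and 2.78 CPM in the other 9 (interaction 3.57 ± 0.35; adjusted p = 0.000761). Sox11, an embryonic transcription factor, stood at 60.7, 17.9 and 49.3 CPM in p66Low aggressive tumours and between 0.122 and 0.982 CPM elsewhere (interaction -7.01 ± 0.75; adjusted p = 0.00103). Tmem35, a neuronal membrane protein, stood at 25.4, 7.95 and 18.9 CPM in p66Low parental tumours and between 0.143 and 0.774 CPM in the other 9 (interaction 4.92 ± 0.89). Each of these 5 was called without the 3 libraries and in every fit that left out 1 tumour.

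**Figure D2:**
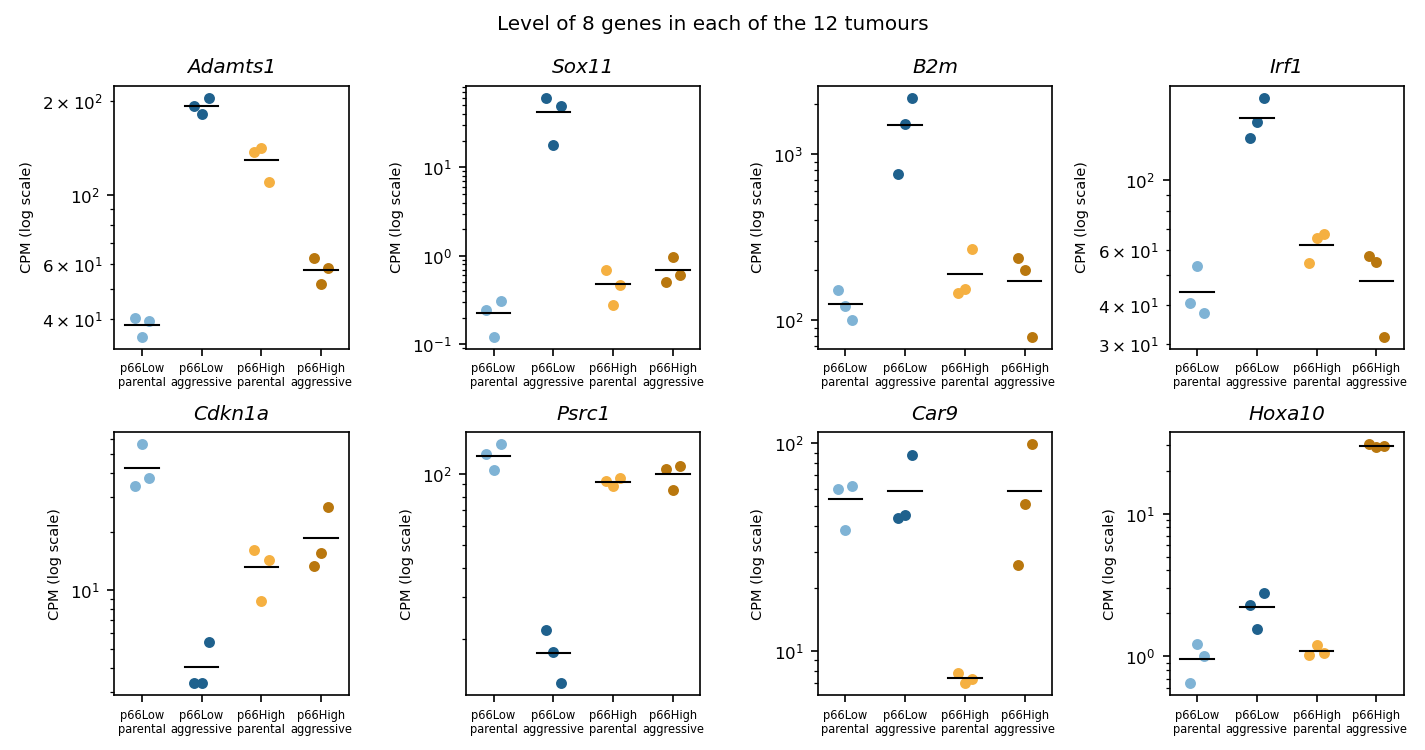
Dots give the level of 8 genes in each of the 12 tumours in CPM on a log axis, by group, and the black line is the mean of 3 tumours. Adamts1 crosses over between the lines, Psrc1 and Sox11 stand apart in p66Low aggressive tumours (17.4 and 42.6 CPM on average) and Hoxa10 in p66High aggressive tumours (29.9 CPM).

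Before the gene lists, promoter sequences are shown for genes of the interferon, class I and p53 lists, which the next paragraphs describe. Each is the 250 bases before the RefSeq start (GRCm38.p6), read 5′ to 3′ on the gene's strand, with capitals for any match on either strand to 3 cores: the interferon-stimulated response element (ISRE) core GAAANNGAAA, the gamma-activated site (GAS) core TTCNNNGAA and the hypoxia response element (HRE) core ACGTG. Over all 27025 genes with such a window, 822 (3.04%) held the ISRE core, 1930 (7.14%) the GAS core and 4481 (16.6%) the HRE core. The first 4 are the p53 targets with the smallest interaction p of the 4 lists. Irf1, Trim30a and Erap1 have the smallest p with a window in the interferon gamma, type I interferon and class I lists and were added after their values were seen.
Ephx1 (chr1:181017570-181017819, minus strand): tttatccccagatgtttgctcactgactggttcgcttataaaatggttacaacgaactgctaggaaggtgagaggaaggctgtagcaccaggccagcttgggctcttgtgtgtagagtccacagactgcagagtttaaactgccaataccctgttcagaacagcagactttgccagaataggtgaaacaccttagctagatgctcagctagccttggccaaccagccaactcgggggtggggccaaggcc
Cdkn1a (chr17:29090729-29090978, plus strand): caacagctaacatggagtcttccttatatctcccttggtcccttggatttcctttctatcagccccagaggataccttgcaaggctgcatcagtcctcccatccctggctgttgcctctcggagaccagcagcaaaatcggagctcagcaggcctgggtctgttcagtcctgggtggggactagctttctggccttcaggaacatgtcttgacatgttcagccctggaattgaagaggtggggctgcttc
Bax (chr7:45466899-45467148, minus strand): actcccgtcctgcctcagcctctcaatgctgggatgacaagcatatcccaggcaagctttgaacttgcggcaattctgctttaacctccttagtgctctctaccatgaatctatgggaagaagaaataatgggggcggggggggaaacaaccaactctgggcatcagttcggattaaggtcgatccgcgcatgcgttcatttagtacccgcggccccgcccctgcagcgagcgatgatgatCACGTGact
Eda2r (chrX:97377210-97377459, minus strand): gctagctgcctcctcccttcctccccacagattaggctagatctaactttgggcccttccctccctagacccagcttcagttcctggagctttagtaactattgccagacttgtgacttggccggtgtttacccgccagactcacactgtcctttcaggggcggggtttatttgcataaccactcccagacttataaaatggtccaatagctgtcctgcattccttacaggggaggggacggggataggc
Irf1 (chr11:53769764-53770013, plus strand): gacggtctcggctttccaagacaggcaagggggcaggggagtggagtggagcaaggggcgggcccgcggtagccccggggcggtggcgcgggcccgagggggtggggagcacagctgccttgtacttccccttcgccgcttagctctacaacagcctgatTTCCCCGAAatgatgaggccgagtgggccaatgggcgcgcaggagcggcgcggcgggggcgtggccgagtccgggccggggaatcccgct
Trim30a (chr7:104465194-104465443, minus strand): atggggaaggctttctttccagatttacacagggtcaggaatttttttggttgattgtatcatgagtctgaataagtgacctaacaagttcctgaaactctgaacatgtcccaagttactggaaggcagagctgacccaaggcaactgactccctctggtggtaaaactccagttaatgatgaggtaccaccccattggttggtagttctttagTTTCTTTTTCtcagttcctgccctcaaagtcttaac
Erap1 (chr13:74639603-74639852, plus strand): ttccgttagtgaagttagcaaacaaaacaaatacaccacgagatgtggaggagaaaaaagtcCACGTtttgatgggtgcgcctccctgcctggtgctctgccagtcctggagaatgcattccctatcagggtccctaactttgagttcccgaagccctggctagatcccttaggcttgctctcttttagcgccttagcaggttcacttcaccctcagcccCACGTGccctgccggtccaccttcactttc

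In these windows Irf1 held a GAS core beginning 90 bases before the start and Trim30a an ISRE core beginning 36 bases before it. Bax held overlapping HRE cores on both strands beginning 9 and 8 bases before the start, and Erap1 held 3 HRE cores, beginning 188, 30 and 29 bases before it, of which the last 2 overlap. Ephx1, Cdkn1a and Eda2r held none of the 3 cores. A match is a run of letters, not a measured site, and p53 response elements were not searched. Of the class I list, 17 of 19 members had a window and 3 of them held the ISRE core. Windows matched 16 of 22 members of the interferon gamma list and 20 of 29 of the type I list, under 80%, so no share is read for those lists.

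Genes of interferon signalling rose with selection in p66Low and did not pass the test in p66High, and most of their interactions were called lower. Of 22 genes of the interferon gamma response, 16 were called lower and none higher, against 7.99% and 4.37% of all genes. The median log2 interaction was -3.36 against 0.05 over all genes tested. All 22 rose with selection in p66Low (median 3.67), and none passed the test in p66High (median 0.40). Irf1, a transcription factor at the head of the response, measured 40.7, 53.4 and 37.7 CPM before selection in p66Low and 136, 153 and 183 CPM after it, which did not overlap. The p66High tumours held 54.4, 65.3 and 67.3 CPM as parental and 57.2, 54.7 and 31.7 CPM as aggressive ones, which overlapped, with replicate 3 lowest. The interaction was -2.22 ± 0.30 (adjusted p = 0.00243). Ciita, the master activator of MHC class II genes, stood at 64.1, 74.2 and 67.0 CPM in p66Low aggressive tumours and at 5.09 to 15.5 CPM in the other 9 (interaction -3.29 ± 0.49; adjusted p = 0.00333). Cd274, the checkpoint ligand PD-L1, went from 1.81 ± 0.99 to 17.0 ± 1.65 CPM in p66Low (interaction -2.87), and the GTPase gene Gbp7 from 28.3 ± 7.05 to 219 ± 51.5 CPM (-2.90). Nlrc5, the activator of class I genes (-4.88), and Gbp4 (-4.45) were also called. With the 3 libraries left out, the median of the interferon gamma response was -3.57 and 2 members were called, Irf1 (-2.38) and Ciita (-2.90). Single tumours decided many of these calls: 4 were left without p66Low parental replicate 3, 5 when p66High parental replicate 3 was left out, 9 without p66Low parental replicate 1 or p66Low aggressive replicate 2, and 10 without p66High parental replicate 1 or 2. With the p66High tumours that share a title number summed, 5 members were called and the median was -3.70. With the lymph node covariate 1 member was called and the median was -3.39.

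Type I interferon genes, which include antiviral sensors and effectors, followed the same course. Of 28 tested members of the type I interferon response, 19 were lower and none higher, against 7.99% and 4.37% of all genes. The median was -3.08. In p66Low 21 rose with selection (median 2.12), and in p66High none passed the test (median -0.74). Trim30a, an antiviral and inflammasome regulator, was at 9.13, 12.1 and 8.24 CPM in the p66Low parental group and at 40.95, 73.6 and 67.2 CPM in its aggressive counterpart, with no overlap. In p66High it stood at 10.8, 11.1 and 11.7 and 10.1, 8.13 and 2.46 CPM, and replicate 3 of the aggressive group was lowest (interaction -3.32 ± 0.54; adjusted p = 0.00537). Oas3, which makes the activator of RNase L (-3.79), Ifit2, which blocks translation (-2.94), and the ADP-ribosyltransferase Parp9 (-1.78) were called as well. Without the 3 libraries 5 members of the type I interferon response were lower, Ifit2, Dhx58, Oas3, Trim30a and Parp9, with a median of -3.66. The count was 7 without p66Low aggressive replicate 2, 8 without p66High parental replicate 1 or 2, 10 without p66Low parental replicate 3 and 11 without p66Low parental replicate 1. It was 3 with the p66High tumours of a shared title number summed (median -3.27) and 1 with the lymph node covariate (median -3.79).

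The MHC class I presentation list, which loads peptides for recognition by cytotoxic T cells, kept most of its calls when tumours were left out. Of 19 members 16 were lower and none higher, against 7.99% and 4.37% of all genes, with a median of -2.21. All 16 rose with selection in p66Low, while none passed in p66High. B2m, the light chain of every class I molecule, had levels of 151, 122 and 99.8 CPM in parental p66Low tumours and of 760.3, 1526 and 2181 CPM after selection. In p66High its levels were 145, 154 and 267 CPM before and 235, 200.02 and 79.2 CPM after selection. The p66Low aggressive tumours lay above all others, and the 2 p66High groups overlapped (interaction -3.72 ± 0.62; adjusted p = 0.00587). Tap2, which pumps peptides into the endoplasmic reticulum, had an interaction of -2.21 ± 0.35, Erap1, which trims them, of -1.72 ± 0.27, and the class I gene H2-Q4 of -2.65 ± 0.48. The immunoproteasome subunit Psmb8 had -4.07 and the heavy chain H2-K1 -3.34, and reads of H2 genes can be shared between near-identical copies. The 3 members not called, Calr (-0.31), Pdia3 (0.19) and Canx (0.10), are general chaperones of glycoprotein folding. With the 3 libraries left out, 11 members of MHC class I presentation were lower (median -2.39), and leaving out single tumours gave 12 to 16 and summing tumours of a shared title number 14. With the lymph node covariate none was called by the edgeR test, with a median of -2.22.

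MHC class II presentation, carried in most tissues by dendritic cells, macrophages and B cells, gave 11 lower of 12 tested, against 7.99% of all genes. Its median was -3.34. All 12 rose with selection in p66Low and none passed in p66High. H2-DMb1, a subunit of the peptide editor of class II, went from 5.81, 9.17 and 4.55 to 29.9, 53.3 and 51.5 CPM in p66Low and from 7.28, 9.96 and 10.8 to 8.50, 4.95 and 2.03 CPM in p66High. The p66Low aggressive tumours lay above all others, including replicate 3, which is not among the 3 libraries (interaction -3.64 ± 0.61; -3.71 without the 3, adjusted p = 0.0429). H2-DMb1 was the gene of MHC class II presentation with the lowest p and the 1 called without the 3 libraries. The list's median was then -2.94. With the lymph node covariate no member was called, with a median of -2.165. The count was 5 without p66Low aggressive replicate 2, 6 without p66Low parental replicate 3 and 7 without p66Low parental replicate 1 or p66High parental replicate 3, or with tumours of a shared title number summed.

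**Figure D3:**
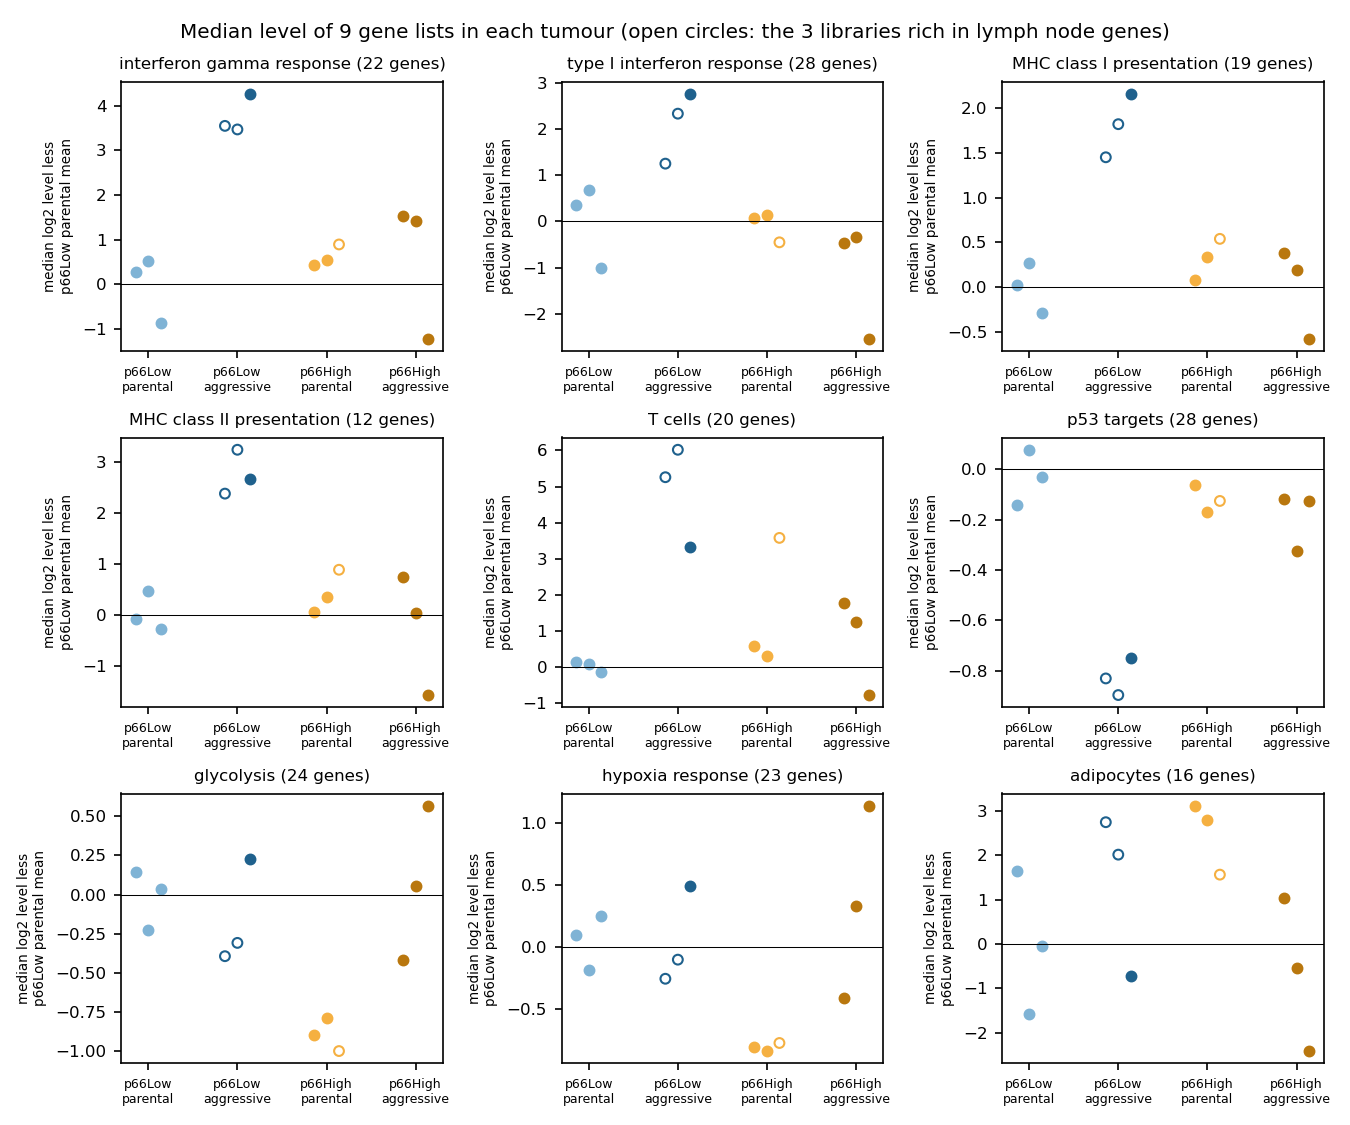
Each dot is the median over a list's tested members of the log2 level in 1 tumour less the mean of the p66Low parental tumours, for 9 lists and 12 tumours; open circles are the 3 libraries rich in lymph node genes. In the interferon gamma panel p66Low aggressive tumours sit at 3.47 to 4.27, above all others, and in the p53 panel at -0.90 to -0.75, below all others.

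Markers of host immune cells moved with these lists, and their counts of lower calls stand against 7.99% over all genes. The summed level of 20 T cell markers was 229, 380 and 63.4 CPM in p66Low aggressive tumours, 73.8 CPM in p66High parental replicate 3 and 6.21 to 20.6 CPM in the other 8, and 18 of the 20 had a lower interaction (median -6.64). Cd3g, a subunit of the T cell receptor complex, stood at 11.7, 22.3 and 4.81 CPM in p66Low aggressive tumours and at 0.156 to 4.33 CPM in the other 9 (interaction -6.96 ± 1.27). Summed NK and cytotoxic cell markers were 36.7, 47.1 and 34.5 CPM in p66Low aggressive tumours and 0.82 to 13.9 CPM elsewhere, with 11 of 14 tested markers lower. Ncr1, an activating receptor of NK cells, stood at 3.44, 2.66 and 2.44 CPM in p66Low aggressive tumours and at 0.0812 to 1.52 CPM elsewhere (interaction -5.25 ± 0.87). Summed markers of macrophages and monocytes were 1830, 2530 and 1670 CPM in p66Low aggressive tumours and 945 to 1750 CPM elsewhere, which overlap, with 12 of 22 lower, among them the Fc receptor Fcgr1 (-1.89) and the complement subunit C1qb (-1.11). Of 16 markers of dendritic cells 9 were lower, led by the integrin Itgae (-3.90 ± 0.59). Without the 3 libraries edgeR called no marker of T cells or of NK and cytotoxic cells (medians -2.41 and -3.76), 1 of dendritic cells (Itgae, -3.60) and 1 of macrophages and monocytes. With all 12 tumours limma-voom called 1 of the T cells list. Without p66Low parental replicate 3 the counts for T cells, NK and cytotoxic cells, dendritic cells and macrophages and monocytes were 11, 5, 1 and 4, without p66High parental replicate 3 they were 10, 7, 2 and 9, and without p66Low aggressive replicate 2 they were 13, 6, 2 and 5. With tumours of a shared title number summed they were 14, 6, 2 and 5. The part of these cells in the interferon and MHC results was not tested.

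B cell and lymph node genes made up the far end of the lower calls and rested on the 3 libraries. All 12 B cell markers and 8 of 9 lymph node stroma markers were lower, against 7.99% of all genes. Ms4a1, which encodes CD20, stood at 31.7, 42.2 and 0.171 CPM in p66Low aggressive tumours, at 0.113, 0.0704 and 8.50 CPM in p66High parental ones, and at or under 0.102 CPM in the other 6. Replicates 1 and 2 of the first group and replicate 3 of the second are the 3 libraries, and the other 9 tumours were at 0.171 CPM or less. Enpp2, autotaxin, which high endothelial venules of lymph nodes secrete, stood at 36.3, 56.5 and 1.06 CPM and 2.82, 2.50 and 17.1 CPM in the same groups (interaction -7.98; -1.59 without the 3 libraries, adjusted p = 0.35). Fcer2a, Ccl21a, Fcrl1, Fcrla, Cd79a and Il9r, among the genes with the lowest fitted interaction, were also highest in these 3 libraries. limma-voom called none of either list, where edgeR had 12 and 8 at an unadjusted p under 0.05 for B cells and lymph node stroma. Without p66Low parental replicate 3 edgeR called 2 of the B cells list and 1 of lymph node stroma, and without p66High parental replicate 3 it called 3 and 1, and with tumours of a shared title number summed 4 and 1. Fcer2a and Ccl21a had no count in any p66Low parental tumour, so their fitted differences are not read as sizes.

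Genes of inflammation and complement were lower in smaller steps, where 7.99% of all genes were called lower and 4.37% higher. Of 22 genes of the NF-kB subunits and inflammatory cytokines list 12 were lower and none higher (median -1.22; -0.61 without the 3 libraries and -0.49 with the lymph node covariate). Birc3, an inhibitor of apoptosis that NF-kB induces, went from 14.5, 16.8 and 14.3 to 35.7, 49.9 and 30.8 CPM in p66Low and from 21.1, 22.7 and 24.8 to 17.0, 18.1 and 14.2 CPM in p66High. Parental and aggressive tumours did not overlap in either line (interaction -1.83 ± 0.24; adjusted p = 0.00235), although the change in p66High alone did not pass the test (adjusted p = 0.123), and Birc3 was the member called without the 3 libraries (-1.43). The subunit Relb (-1.52) and the adhesion receptor Icam1 (-3.15) were also lower. Of 17 complement genes 12 were lower (median -1.59), among them C2 (-3.20) and C4b (-2.54) of the classical pathway. With tumours of a shared title number summed the counts were 6 and 7. Without p66Low parental replicate 3 the count was 7 in both lists, as it was for the complement genes without p66Low aggressive replicate 2. Cd55, which shields cells from complement, had another course, a fall in p66High from 85.2, 78.2 and 76.4 to 14.3, 17.7 and 14.2 CPM with no called change in p66Low (interaction -2.13 ± 0.29; adjusted p = 0.00253), and it was the 1 complement gene called without the 3 libraries.

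Targets of p53 moved the other way: most fell with selection in p66Low and few passed the test in p66High. Of 28 p53 targets 15 were higher and 1, the death receptor Fas (-2.04), was lower, against 4.37% and 7.99% of all genes, with a median of 0.84. In p66Low 19 fell with selection (median -0.86), and in p66High 2 did (median -0.03). Cdkn1a, the inhibitor p21 that halts the cell cycle (ENSMUSG00000023067 on chromosome 17, 29090976 to 29100727, mm10), measured 34.1, 56.0 and 37.6 CPM before selection in p66Low and 3.33, 3.33 and 5.41 CPM after it. The p66High parental group gave 16.1, 8.83 and 14.4 CPM and the aggressive group 13.3, 15.6 and 26.7 CPM. The p66Low aggressive tumours lay below all others and the p66High groups overlapped (interaction 3.88 ± 0.46; adjusted p = 0.00153). Ephx1, an epoxide hydrolase of detoxification, stood at 12.8, 20.9 and 14.1 CPM in p66Low aggressive tumours and at 92.8 to 135 CPM in the other 9 (interaction 2.50 ± 0.27; adjusted p = 0.00103). Bax, which permeabilises mitochondria in apoptosis, stood at 19.1, 19.9 and 18.1 CPM there and at 29.2 to 44.9 CPM in the other 9 (interaction 1.15 ± 0.14; adjusted p = 0.00185). Eda2r, a receptor of the TNF receptor family, stood at 1.67, 2.34 and 1.06 CPM there and at 8.48 to 21.2 CPM elsewhere (interaction 2.77 ± 0.34; adjusted p = 0.00185).

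Many of the p53 calls were also made with fewer libraries. With the 3 libraries left out, 9 of the 28 were called, all higher (median 0.90): Cdkn1a (3.55), Ephx1 (2.62), Eda2r (3.44), Bax (1.22), Ccng1, Phlda3, Aen, Zmat3 and Polk. With the lymph node covariate 7 were called. Leaving out single tumours gave 14 to 17 higher members. Trp53 itself was not called (0.96 ± 0.33; adjusted p = 0.0788), and of 12 tested genes of the p53 family and CDK inhibitors list edgeR called none, with 1 at an unadjusted p under 0.05, DESeq2 called 1 and limma-voom none. Of the p53 targets not called, Gdf15 had 1.86, Bbc3 0.81, Pmaip1 -0.41 and Sesn1 -0.49.

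Some genes of glycolysis and of the hypoxia response had higher interactions, and more members of both lists rose with selection in p66High than in p66Low. Of 24 glycolysis genes 10 were higher (against 4.37% of all genes) and 1, the regulatory enzyme Pfkfb4 (-1.62), was lower, with a median of 1.18. Selection raised 14 of them in p66High (median 0.97), while in p66Low 2 rose and 1 fell (median -0.13). Ldha, which turns pyruvate into lactate, was at 2086, 1437 and 1802 CPM in the p66Low parental group and at 1154, 1124 and 1495 CPM in its aggressive counterpart, which overlapped. The p66High tumours held 720.1, 651 and 704 CPM as parental and 993, 1235 and 1422 CPM as aggressive ones, which did not (interaction 1.31 ± 0.24; adjusted p = 0.00906). Pfkp, which carries out the committing step of glycolysis, had 1.77 ± 0.33 and Aldoc, an aldolase, 1.10 ± 0.22. Ldhb, which favours the reverse reaction, got its interaction from p66Low: it stood at 39.8, 31.8 and 43.5 CPM in p66Low aggressive tumours and at 77.4 to 102 CPM in the other 9 (interaction 1.34 ± 0.18; adjusted p = 0.00239). Ldhb was the 1 glycolysis gene called without the 3 libraries, where the list's median was 0.85. The higher count of glycolysis was 4 without p66Low parental replicate 3 or p66Low aggressive replicate 2, 5 without p66Low parental replicate 1 or p66High parental replicate 3, 6 without p66High parental replicate 1 or p66Low aggressive replicate 1, 18 without p66Low aggressive replicate 3 and 19 without p66High aggressive replicate 1.

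In the hypoxia response, 5 of 23 genes were higher and none lower (median 1.35), against 4.37% and 7.99% of all genes. Selection raised 12 of the 23 in p66High (median 1.47). Car9, a carbonic anhydrase that exports acid, stood at 7.80, 6.97 and 7.32 CPM in parental and 25.8, 51.1 and 98.6 CPM in aggressive p66High tumours. In p66Low it stood at 60.2, 38.3 and 62.2 CPM in parental and 43.8, 45.3 and 88.0 CPM in aggressive tumours. The p66High parental tumours lay below all others, and the other 3 groups overlapped (interaction 2.84 ± 0.59; adjusted p = 0.0131). Mxi1, an antagonist of Myc, had 1.63 ± 0.29. Ankrd37 (2.39 ± 0.60) and Car12, another carbonic anhydrase (1.08 ± 0.27), were each called in 6 of the 12 fits without 1 tumour. Vegfa (2.54; adjusted p = 0.0642) and Slc2a1, the glucose transporter GLUT1 of the glycolysis list (1.60; adjusted p = 0.074), did not pass; these 2 were chosen after their values were seen. Without the 3 libraries edgeR called none of the hypoxia response (median 0.95). With the lymph node covariate no member of the hypoxia response or of glycolysis was called, with medians of 0.365 and 0.64. With all 12 tumours 17 members of the hypoxia response had an unadjusted p under 0.05, and the higher count was 9 by DESeq2 and 4 by limma-voom. It was 2 without p66Low parental replicate 1 or p66Low aggressive replicates 1 or 2, 3 without p66Low parental replicate 3 or p66High parental replicates 1 or 3, 12 without p66Low aggressive replicate 3 and 15 without p66High aggressive replicate 1.

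In the main fit the calls within receptor signalling were all higher, against 4.37% called higher over all genes. None of the 15 Shc and Grb2 adaptors passed by edgeR, with 2 at an unadjusted p under 0.05. DESeq2 called 1 higher and 1 lower, and limma-voom called none. Shc4 had 1.05 ± 0.32 by edgeR (adjusted p = 0.0558). Of 14 ErbB receptors and ligands 2 ligands were higher. Nrg1, the neuregulin that activates ErbB2 through ErbB3, stood at 9.88, 7.25 and 9.61 CPM in parental and 41.04, 36.6 and 19.2 CPM in aggressive p66High tumours, with no overlap. In p66Low it stood at 26.5, 18.3 and 23.3 and 19.6, 7.04 and 13.3 CPM, which overlapped (interaction 2.64 ± 0.50; adjusted p = 0.00952; 2.69 without the 3 libraries, adjusted p = 0.0407). Tgfa, a ligand of the EGF receptor, had 1.87 ± 0.55 (adjusted p = 0.0467) and was called in 3 of the 12 fits without 1 tumour. Of 16 genes of RAS-ERK feedback and output 4 were higher and none lower (median 0.61). DESeq2 called 5 of them higher and 1 lower. Dusp4, a phosphatase that switches off ERK, stood at 11.7, 18.7 and 17.3 CPM in p66Low aggressive tumours and at 40.4 to 63.0 CPM in the other 9 (interaction 1.66 ± 0.25; adjusted p = 0.00346; 1.55 without the 3 libraries). Spry4, an inhibitor of RAS signalling, rose in p66High from 22.7, 11.2 and 26.9 to 77.9, 58.1 and 74.8 CPM with no called change in p66Low (interaction 1.79 ± 0.42). The count for RAS-ERK feedback and output was 1 without p66Low parental replicate 3 or p66Low aggressive replicate 2, and 2 without p66Low parental replicate 1 or p66High parental replicate 2 or 3. Spry4 was lost without p66Low parental replicate 3 or p66Low aggressive replicate 2, and 2 other members were lower without p66High aggressive replicate 1.

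Developmental transcription factors were called in both directions. Of 24 Sox and homeobox factors 5 were higher and 4 lower. Beside Sox11, Sox2, a factor of stem cells, stood at 2.61, 5.02 and 8.41 CPM in p66Low aggressive tumours and at or under 0.0902 CPM in the other 9, so its level is described and its fitted difference depends on those few reads. Sox10, a factor of neural crest and basal mammary cells, rose in p66High from 69.4 ± 14.2 to 176 ± 18.2 CPM with no called change in p66Low (interaction 1.70 ± 0.23). Hoxa9, next to Hoxa10 in its cluster, stood at 11.0, 8.995 and 11.4 CPM in p66High aggressive tumours and at 0.675 to 1.86 CPM in the other 9 (adjusted p of the interaction = 0.00519). Of the 22 Hox genes, against 4.37% higher and 7.99% lower over all genes, 2 were higher, Hoxa9 and Hoxa10, and 2 were lower, Hoxb9 and Hoxd3, which were called in 3 and 1 of the 12 fits without 1 tumour. For the Sox and homeobox factors the higher count was 1 without p66Low parental replicate 1, p66Low aggressive replicate 2 or p66High aggressive replicate 3, 2 without p66High parental replicate 1, and 3 without p66Low parental replicate 2 or 3, p66High parental replicate 2 or p66Low aggressive replicate 1.

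Among epithelial and mesenchymal genes, 2 of 22 were higher and 6 lower, against 4.37% higher and 7.99% lower over all genes. Twist1, a factor that promotes the mesenchymal state, went from 19.6, 20.3 and 23.8 to 15.4, 16.2 and 16.8 CPM in p66Low and from 21.0, 22.4 and 18.96 to 29.4, 28.6 and 35.5 CPM in p66High. Parental and aggressive tumours did not overlap in either line, and the interaction was 0.98 ± 0.17 (adjusted p = 0.00684; 0.87 without the 3 libraries, adjusted p = 0.13). The epithelial claudin Cldn3 fell in p66High from 148, 164 and 144 to 5.63, 22.2 and 25.2 CPM (interaction -2.21 ± 0.56) and was lost without p66Low parental replicate 3, p66High parental replicate 2 or p66Low aggressive replicate 2. Zeb2, a repressor of epithelial genes that macrophages also express, was lower (-1.55 ± 0.36) and was lost without p66Low aggressive replicate 2. In the epithelial-mesenchymal transition list the count of lower genes was 1 without p66Low aggressive replicate 2, 2 without p66Low parental replicate 3, and 3 without p66High parental replicate 2 or 3 or p66High aggressive replicate 1, and that of higher genes was 1 without any tumour other than p66Low aggressive replicate 3. Of 19 YAP and TEAD targets 4 were lower, led by Nt5e, the ectonucleotidase CD73, which rose in p66Low from 14.9 ± 2.67 to 26.1 ± 3.68 CPM and fell in p66High from 51.8 ± 9.20 to 22.8 ± 5.51 CPM (interaction -1.98 ± 0.29), and by Ankrd1, a stress-induced ankyrin repeat protein (-2.98 ± 0.49). Both were called in all 12 fits without 1 tumour, and the count was 2 without p66Low parental replicate 1 or 3, p66High parental replicate 1 or 2 or p66Low aggressive replicate 1 or 2.

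A minority of milk and defence secretion genes were lower, where the share over all genes was 7.99%. Of 14 milk protein genes 5 were lower and none higher (median -1.67), with 7 falling with selection in p66High. Wap, whey acidic protein, stood at 0.685, 0.746 and 0.431 CPM in p66High aggressive tumours and at 4.69 to 17.9 CPM in the other 9 (interaction -4.50 ± 0.64; adjusted p = 0.00276; -4.88 without the 3 libraries). Of 15 acute phase and defence secretions 5 were lower (median -3.94). Pigr, which carries IgA across epithelium, went from 24.0, 27.8 and 8.53 to 238, 429 and 637 CPM in p66Low with no overlap and from 143, 136 and 128 to 200.02, 161 and 69.2 CPM in p66High with overlap (interaction -4.36 ± 0.68; adjusted p = 0.00412). Ltf, lactoferrin, which is on both lists, had -4.94 ± 0.99, and Slpi, a protease inhibitor of secretions, -5.09 ± 0.90; neither passed without the 3 libraries. Wap and Pigr did pass there, each as the 1 member of its list. The milk protein count was 2 when p66Low parental replicate 3 was left out and 3 in the fits lacking p66High parental replicate 3 or p66Low aggressive replicate 2, and 3 members were higher without p66Low aggressive replicate 3 and 2 without p66Low parental replicate 2. Saa2, serum amyloid A, fell in p66High from 12.5, 35.1 and 15.9 to 0.305, 0.236 and 0.173 CPM (interaction -4.69 ± 0.88), and its reads can be shared with its near copy Saa1.

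Some fat cell markers were lower, and genes of fat synthesis went both ways. Over all genes, 4.37% were higher and 7.99% lower. Of 16 adipocyte markers 5 were lower (median -3.87), none was called without the 3 libraries (median -1.35), and the summed level ran from 349 to 778 CPM in p66High parental and from 78.6 to 286 CPM in p66High aggressive tumours. In p66Low the summed level was 370, 122 and 172 CPM in parental and 752, 466 and 146 CPM in aggressive tumours. Replicates 1 and 2 of the latter are among the 3 libraries. Over the adipocytes list the count was 11 without p66Low aggressive replicate 3 and 3 without p66Low parental replicate 2 or p66High parental replicate 3. It was 1 without p66Low parental replicate 3, p66High parental replicate 1 or 2, or p66Low aggressive replicate 1 or 2. The same held without p66High aggressive replicate 2 or 3. Of 17 fatty acid synthesis genes 1 was higher and 2 were lower (median -0.12), shares near those over all genes, and edgeR called none of them without the 3 libraries. The higher one was Me1, malic enzyme, which supplies NADPH (1.23 ± 0.33), called in 3 of the 12 fits without 1 tumour. Scd1, a fatty acid desaturase that fat cells express strongly and that was called in 2 of the 12 fits without 1 tumour, fell in p66High from 1436, 1190.3 and 947 to 213, 133 and 204 CPM (interaction -2.78 ± 0.74; adjusted p = 0.0322; -1.16 without the 3 libraries, adjusted p = 0.395). Thrsp, a nuclear regulator of lipogenesis, fell in both lines, from 117 ± 21.1 to 72.3 ± 10.6 CPM in p66Low and from 237 ± 71.4 to 63.3 ± 6.28 CPM in p66High (interaction -1.21 ± 0.30), and was lost without p66High parental replicate 3, p66Low aggressive replicate 2 or p66High aggressive replicate 3. The part of fat cells in the Scd1 and Thrsp values was not tested.

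Calls went in both directions among Wnt and VEGF genes and in the lower direction among TGF-beta and BMP genes, against 4.37% higher and 7.99% lower over all genes. Of 23 Wnt pathway genes 2 were higher and 5 lower; the receptor Lgr5 (1.97) and the feedback inhibitors Axin2 (-2.34) and Wif1 (-2.96) were called in 4, 1 and 6 of the 12 fits without 1 tumour. Lef1, a Wnt factor that lymphocytes also express, stood at 15.1, 20.2 and 5.25 CPM in p66Low aggressive tumours and at 0.18, 0 and 3.54 CPM in p66High parental ones, with the 3 libraries and p66Low aggressive replicate 3 highest, and was lost without p66High parental replicate 3. With the 3 libraries left out, edgeR called none of the Wnt pathway genes. Of 22 TGF-beta and BMP genes 4 were lower, led by the coreceptor Tgfbr3, which fell in p66High from 51.9, 54.0 and 47.6 to 25.5, 28.4 and 30.6 CPM (interaction -1.40 ± 0.26). The count was 2 without p66High parental replicate 3. Of 16 VEGF ligands, receptors and angiopoietins 2 were higher and 2 lower. Vegfc, a ligand of lymphatic vessel growth, fell in p66High from 5.82, 4.82 and 5.43 to 2.94, 2.16 and 2.37 CPM, while its p66Low groups stood at 1.67 and 2.48 CPM (interaction -1.66 ± 0.29; adjusted p = 0.00759). Pgf, placental growth factor, had 2.48 ± 0.55 (adjusted p = 0.0166), and p66High aggressive replicate 3 held its highest level. Both were called in all 12 fits without 1 tumour and in neither case without the 3 libraries.

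Lists of growth and housekeeping functions were read against the 4.37% of all genes called higher, and ranged from no call for the cell cycle to 4 of 22 for ATF4 genes. edgeR called none of the 34 cell cycle genes, with 6 at an unadjusted p under 0.05, and neither DESeq2 nor limma-voom called any. The median of the cell cycle list was 0.58, and 9 were higher without p66Low parental replicate 2. Of 28 cytosolic ribosomal proteins 23 fell with selection in p66Low, and Rpl3 (0.89 ± 0.18) and Rpl8 (0.85 ± 0.24), both on chromosome 15, were called higher. Of 30 nuclear respiratory chain genes 1 was higher, and of 13 mitochondrially encoded genes 1. Of 22 ATF4 stress and amino acid genes 4 were higher, led by Sesn2, a sensor of leucine that is also a p53 target, which stood at 12.0, 15.2 and 17.9 CPM in p66Low aggressive tumours and at 25.8 to 33.4 CPM elsewhere (interaction 1.17 ± 0.20). Slc7a5, a transporter of large neutral amino acids, fell with selection in p66Low from 109, 83.4 and 99.2 to 35.0, 26.3 and 19.6 CPM (interaction 1.22 ± 0.30) and passed without the 3 libraries (1.87; adjusted p = 0.0171). It was called in 6 of the 12 fits without 1 tumour. Of 27 collagens and matrix genes Col10a1 and Col11a1 (1.30 ± 0.21) were higher, and 6 others were lower once p66Low aggressive replicate 3 was left out. Among 20 mammary keratins and luminal factors, Tfap2c, a luminal transcription factor, stood at 50.02, 44.5 and 52.8 CPM in p66Low aggressive tumours and at 75.8 to 118 CPM elsewhere (interaction 1.02 ± 0.22), and Spdef, another, had -1.85 ± 0.43. Of 18 endothelial markers edgeR called none, with 5 at an unadjusted p under 0.05, DESeq2 called 4 lower and limma-voom none. With tumours of a shared title number summed, higher calls were 2 each for RAS-ERK feedback and output, ATF4 genes and Sox and homeobox factors, and lower calls were 3 each for milk proteins and the epithelial-mesenchymal transition, 2 for YAP and TEAD targets and 1 each for Wnt pathway genes and adipocytes.

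**Figure D4:**
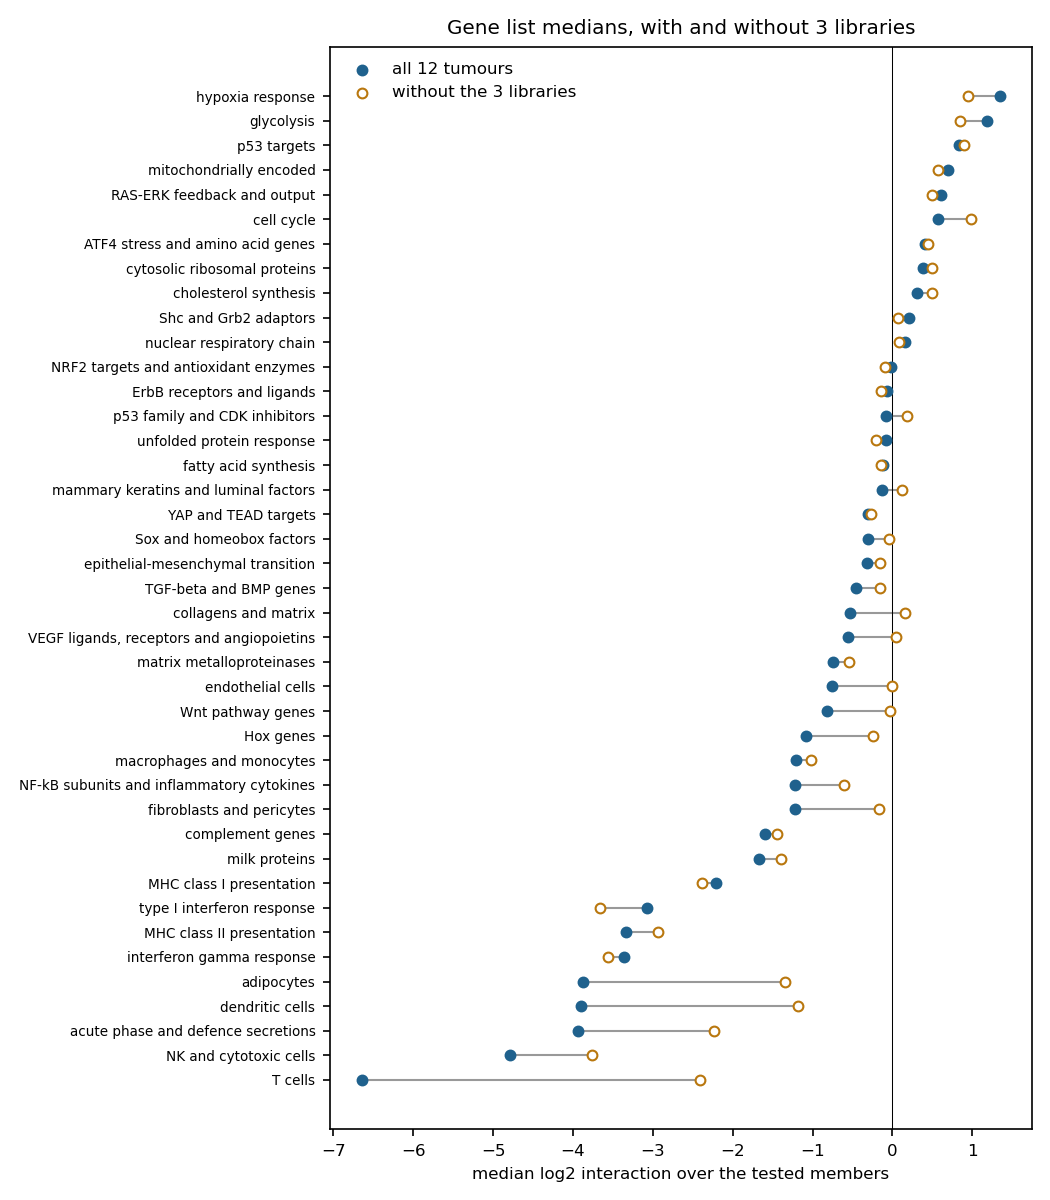
Filled dots give the median log2 interaction over the tested members of the lists shown with all 12 tumours, and open dots the same with the 3 lymph node libraries left out. The interferon and MHC medians lie at -3.36 to -2.21 with all tumours and at -3.66 to -2.39 without the 3 libraries, while T cells move from -6.64 to -2.41 and adipocytes from -3.87 to -1.35.

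Calls were not spread evenly over the genome. On chromosome 15, 124 of 714 tested genes were higher (17.4%, against 4.37% over all genes), and the 494 coding genes of at least 2 CPM had a median of 0.46. Their median log2 level, each gene relative to its mean over 12 tumours, was 0.37, 0.06 and 0.29 in p66Low parental tumours, -0.16, -0.18 and -0.12 in p66High parental, -0.08, -0.02 and -0.04 in p66Low aggressive and -0.03, -0.12 and 0.07 in p66High aggressive tumours. Replicates 1 and 3 of p66Low parental stood above all others, and replicate 2 was close to p66High aggressive replicate 3. Beyond 80 Mb of chromosome 16, 52 of 97 tested genes were lower (53.6%, against 7.99%) and 1 was higher. Over its 72 coding genes of at least 2 CPM, the relative level was -0.58, -0.52 and -0.60 in p66High aggressive tumours and 0.14 to 0.25 in the other 9, with no overlap. The selection change there was -0.81 in p66High and -0.04 in p66Low as medians. Tmem50b, a membrane protein gene in this stretch, went from 29.7, 31.0 and 28.9 to 13.0, 12.8 and 10.6 CPM in p66High (interaction -1.73 ± 0.17; adjusted p = 0.000761), and Adamts1 lies in it too. Between 30 and 40 Mb of chromosome 17, which holds the MHC genes, 66 of 262 genes were lower (25.2%), and between 40 and 50 Mb of chromosome 6, 27 of 82 (32.9%). The chromosome 16 stretch was delimited, and the stretches of chromosomes 17 and 6 were picked, after their values were seen. The part of host immune cells in the calls of the latter pair was not tested, and DNA copy number was not measured here.

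**Figure D5:**
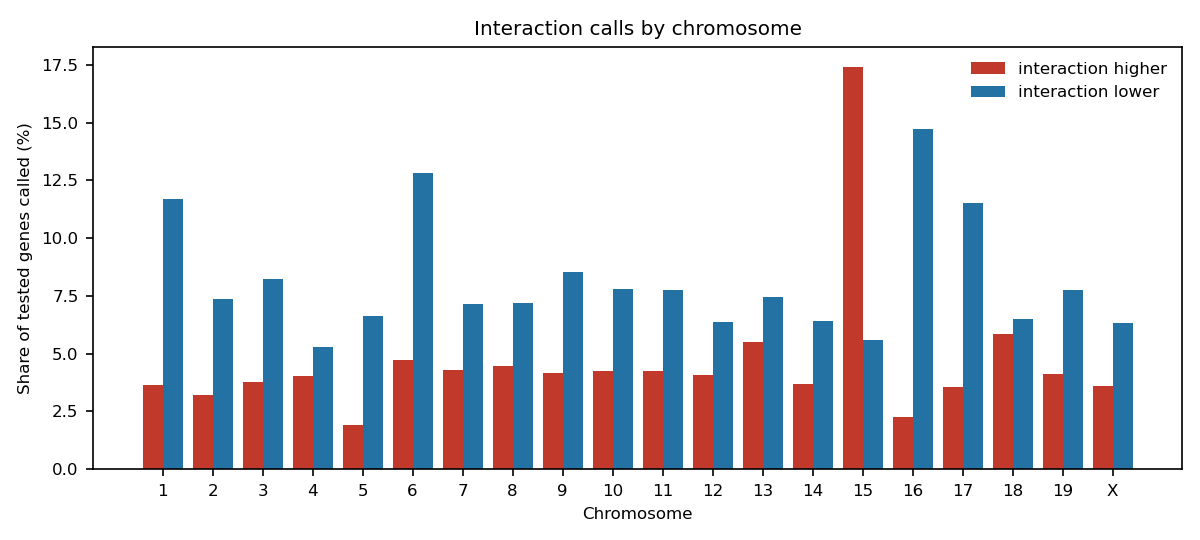
Bars give the share of tested genes on each chromosome whose interaction was called higher (red) or lower (blue), in percent from 0. Chromosome 15 stands out for higher calls (17.4%) and chromosome 16 for lower calls (14.7%).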

How the data were processed

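Stranded libraries of total RNA without ribosomal RNA, per the labels' protocols, were sequenced from 12 mammary tumours, and the authors deposited raw read counts per gene for every tumour. The submitters' processing notes name Trimmomatic 0.32, STAR 2.3.0e, featureCounts 1.4.4 and the mm10 build. The annotation, the strand setting and the handling of reads with several matches were not given in the sources used here; near-identical and overlapping genes are thus uncertain. Of 39017 genes, 37693 (96.6%) matched GENCODE vM21 by identifier, and 19370 passed edgeR's filterByExpr. Depth was 17.4 to 76.1 M counts per tumour, and 3 counts equal 0.0394 to 0.173 CPM. Groups follow the labels.

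Counts were fitted in R 4.3.3 with edgeR 4.0.16 (quasi-likelihood F-test, TMM scaling, 1 mean per group, 8 residual degrees of freedom) with Benjamini-Hochberg adjustment across the genes tested. The fit was tested on simulated data. DESeq2 1.42.0, limma 3.58.1 (voom), other scalings and filters, a minimum difference, summed libraries, a lymph node covariate and fits without 1 tumour or without 3 were alternatives. Titles of p66High parental replicates 1 and 2 share the number 173, and those of p66High aggressive replicates 1 and 2 the number 185; the labels do not say what it means. No replicates held identical counts, and chi-square divided by its degrees of freedom was at least 19.1 between replicates.

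The 50 gene lists, and the comparison itself, were chosen with earlier results of these data known. Genes were named by rule: of called coding genes with at least 2 CPM in the highest group and no overlap in at least 1 line, the 12 highest, the 12 lowest and the 5 of each direction with the smallest p; the 5 of each direction with opposite selections; and up to 4 called members of each list by p. Not all of these 185 genes are printed, and some are not reported here. Dhx58, Nlrc5, Gbp4, Psmb8, H2-K1, Calr, Pdia3, Canx, Fas, Ccng1, Phlda3, Aen, Zmat3, Polk, Gdf15, Bbc3, Pmaip1, Sesn1 and Pfkfb4 were chosen after their values were seen. Promoter windows are RefSeq sequences of GRCm38.p6, which has the coordinates of mm10; the Eda2r start matched no annotated transcript start.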

Additional observations from a re-analysis of the deposited data

Results flagged for a closer look

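Values are listed here because the test of the difference between the lines passed; besides the count over all genes, the named genes listed are those for which both selections also passed, with opposite signs. The interaction was called for 2395 genes. Selection lowered the gene in p66Low and raised it in p66High for Dpysl5 (log2 interaction 5.97), Rspo3 (4.55), St8sia6 (3.96), Pkp1 (3.84), Asic1 (3.83), Otogl, an inner ear protein (3.82), and Twist1 (0.98).

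Selection raised the gene in p66Low and lowered it in p66High for Sftpd (-7.80), Vmn2r96, a pheromone receptor gene of a large family whose reads may be shared (-7.02), Reep1 (-6.55), Sv2b, a synaptic vesicle protein (-6.03), Slc35d3 (-5.67), Adamts1 (-3.49), Cldn4 (-3.22), Nt5e (-1.98) and Tmem50b (-1.73). The T cell receptor constant gene Tcrg-C2 belongs with them. It stood at 0.261, 0.619 and 0.628 CPM in p66Low aggressive and 0.271, 0.493 and 0.604 CPM in p66High parental tumours. In the other 6 it was at 0.081 CPM or less. Its fitted difference (-8.15) rests on few reads and is not read as a size. No outlier test was run, since each group holds 3 tumours; the 3 libraries rich in lymph node genes are described in the results.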

How the results depend on the processing

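Against 2395 interaction calls (847 higher, 1548 lower), testing for a log2 difference of at least 1 gave 307 (67 and 240), summing tumours with a shared title number 1179 (379 and 800), leaving out the 3 lymph node libraries 335 (101 and 234) and the lymph node covariate 153 (54 and 99). limma-voom called 1005 lower and library size alone 545 higher genes. Fits without 1 tumour gave 1179 to 3278 calls, 374 to 1136 higher and 803 to 2142 lower; the highest total, 3278, came without p66Low aggressive replicate 3. For selection in p66Low, called for 3221 genes, a minimum difference gave 452, leaving out the 3 libraries 705, the covariate 697 and fits without 1 tumour 1545 to 3505. For selection in p66High, called for 1150 genes, the DESeq2 Wald test gave 2203, a minimum difference 71, summed tumours 305, leaving out the 3 libraries 586, the covariate 737 and fits without 1 tumour 457 to 1469. Under the covariate the direction turned for Il9r (0.51), Cd79a (1.03), Glycam1 (1.67), Ccr7 (0.56) and Ttn (0.14). Glycam1 is on the lymph node stroma list whose sum is the covariate, so its turn is not read. It is also on the milk protein list. Of the 185 named genes, 173 were called with all 12 tumours. Of these 173, 168 kept their direction in every alternative and 107 were called in each of the 12 fits without 1 tumour. In every alternative other than the minimum difference, 28 were called. Leaving out tumours reduces the samples in the fit; other causes were not tested. No paired analysis was possible because the labels give no replicate number shared across groups.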
